A study of Mus musculus with 6 samples.

Results

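The subunits of the respiratory chain and the ATP synthase were followed in activated mouse CD4+ T cells with and without miPEP31, a peptide read from the precursor RNA of miR-31, a microRNA. Subunits were taken by gene symbol: 109 of the 52856 rows of the count table matched the symbols of complex I to V subunits. Of these, 11 were left out as pseudogenes and 7 lay below a mean of 1 CPM (counts scaled to the library total), taken without TMM factors. CPM levels given below are scaled with TMM factors unless stated. The remaining 91 genes comprised 78 nuclear-encoded subunits and the 13 protein-coding genes of mitochondrial DNA (mtDNA). By complex they numbered 42 for complex I, 4 for complex II, 10 for complex III, 16 for complex IV, with Ndufa4 counted there, and 19 for complex V. The lowest gene kept was Cox6b2, at 1.81 CPM in wild-type and 1.55 CPM in knockout cells. The highest one left out for low counts, Cox7a1, lay at 0.573 and 0.300 CPM. Among the 11 left out as pseudogenes, Ndufb1-ps had a mean of 24.3 CPM and Ndufb4c one of 12.7 CPM, both without TMM factors. Ndufb1-ps was left out for its name, while the annotation lists it as a non-coding RNA at a bidirectional promoter.

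CD4+ T cells came from the spleen of C57BL/6 mice aged 8 weeks. One group was wild type (WT, 3 libraries) and the other was miPEP31-/- (KO, 3 libraries). Cells of both groups had been activated with antibodies to CD3 and CD28 for 48 hours. The labels do not say how the KO allele was made, whether it leaves miR-31 intact, or whether each library came from its own mouse, so p-values measure the spread between these libraries, which may be technical.

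The respiratory chain passes electrons from NADH through complex I, or from succinate through complex II, to ubiquinone and on through complex III and cytochrome c to complex IV. Complexes I, III and IV pump protons across the inner mitochondrial membrane, and complex V, the ATP synthase, uses the proton gradient to make ATP. All but complex II are built from both genomes: mtDNA encodes core proteins of the membrane arms, and nuclear genes encode the other core proteins and the accessory subunits. T cells build up mitochondrial mass when they are activated.

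For 6 of the mtDNA genes the counts could not be read from one row alone, because chromosome 1 carries a near-identical copy of that stretch of mtDNA with its own annotated rows. The first 30 bases of mt-Co3, which encodes cytochrome c oxidase subunit 3, and of its copy Gm28437 are shown because they are the same letter for letter, as were all 783 aligned bases of the 784-base gene. For mt-Nd3 and mt-Co1, the aligned stretches of 345 and 483 bases each held 1 differing base, which is printed as the capital.
mt-Co3, GRCm38 chrM:8607-8636, plus strand: atgacccaccaaactcatgcatatcacata
Gm28437, GRCm38 chr1:24613942-24613971, minus strand: atgacccaccaaactcatgcatatcacata
mt-Nd3, GRCm38 chrM:9459-9488, plus strand: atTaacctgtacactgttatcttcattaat
Gm28438, GRCm38 chr1:24613090-24613119, minus strand: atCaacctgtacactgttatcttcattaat
mt-Co1, GRCm38 chrM:6390-6419, plus strand: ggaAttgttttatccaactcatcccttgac
Gm29216, GRCm38 chr1:24616159-24616188, minus strand: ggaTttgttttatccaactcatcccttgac

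The row of Mir31 had 0 counts in each library, so it checks no label. Counts of the 6 libraries summed to between 22865487 and 26295776. Of 14387 genes tested with the edgeR quasi-likelihood test, 6806 passed an adjusted p of 0.05, which is 47.3% of them: 25.1% were higher and 22.2% lower in KO. The WT and KO values did not overlap for 59.1% of all tested genes, so calls and separated groups were the common state in these data. Of 9 CD4 T cell markers, 7 were lower and 1 higher in KO, and their summed level ran from 2070 to 2200 CPM in WT and from 1980 to 2020 CPM in KO. The summed macrophage markers ran from 43.1 to 54.3 CPM in WT and from 112 to 143 CPM in KO, with 3 of 7 called higher; the defining gene Adgre1 was at 0 and Csf1r below 0.13 CPM in every library. Dendritic cell markers summed to between 22.7 and 28.3 CPM in WT and between 111 and 128 CPM in KO, with 2 of 7 called higher, mostly Batf3, and Clec9a at 0. B cell markers summed to 180 to 252 CPM and 209 to 472 CPM, with 3 of 7 called higher. The NK cell markers summed to 5.7 to 7.93 and 11.1 to 22.0 CPM, with 1 of 5 called higher, the CD8 T cell markers to 12.5 to 15.8 and 15.9 to 36.9 CPM, with 1 of 2 called higher, and the neutrophil and erythroid markers to at most 1.44 CPM. The part of all these markers in the results that follow was not tested. In bulk RNA, fewer cells of a type and less RNA per cell cannot be told apart.

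Among the 91 subunits, 19 were higher, 15 were lower and 57 did not pass the test, so 37.4% were called against 47.3% of all tested genes. By direction, 20.9% were higher and 16.5% lower, against 25.1% and 22.2%. For 53 subunits, or 58.2%, the WT and KO values did not overlap. The 78 nuclear-encoded subunits moved little and in both directions: 18 were higher and 12 lower, and their median log2 fold change was 0.07 against 0.01 for all tested genes. Of these 78, 74 had a log2 fold change under 0.5 in size and 0 reached 1. Their median absolute log2 fold change was 0.16, against 0.34 for all tested genes and 0.26 for the 9090 genes at a mean of 10 CPM or more. All 91 passed the filter on low counts.

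The balance between higher and lower calls moved with the scaling of the libraries. The 18 higher and 12 lower nuclear-encoded subunits became 13 and 16 with upper-quartile scaling and 25 and 11 with plain library sizes. Left-out libraries changed the counts as well: without WT replicates 1, 2 and 3 the higher nuclear subunits numbered 10, 9 and 10, and without WT replicate 2 the lower ones numbered 6. All 34 called subunits kept their direction under every setting tried.

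**Figure D1:**
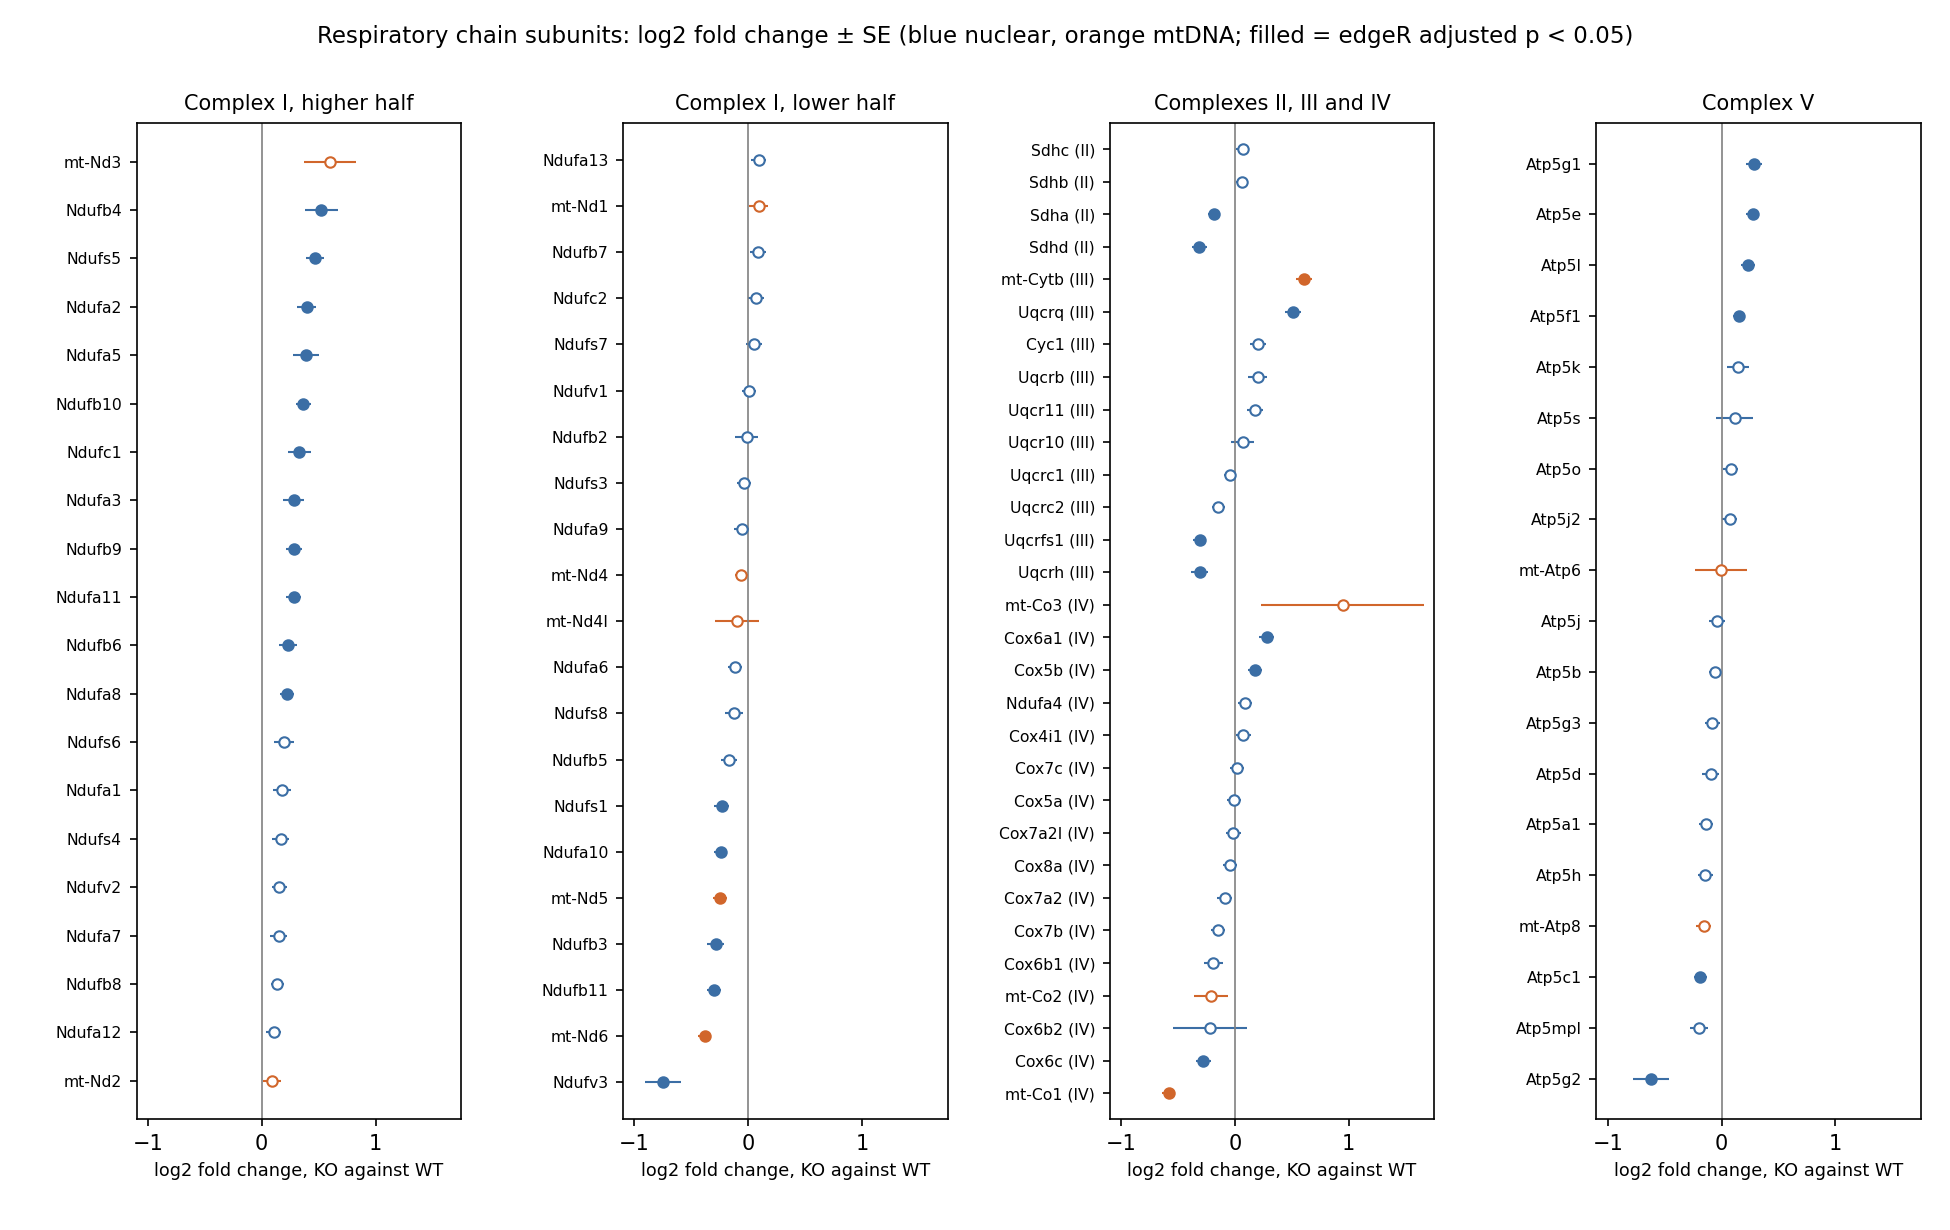
Log2 fold change, KO against WT, of the subunits reported singly, with its standard error (bars); complex I is split over the first 2 panels, and the complex is given in brackets in the third. Nuclear-encoded subunits (blue) lie between -0.75 and 0.52, filled points passed an edgeR adjusted p of 0.05, and the widest bar belongs to mt-Co3, whose counts are divided between its own row and the chromosome 1 copy.

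The 13 mtDNA genes encode core proteins of complexes I, III, IV and V. They did not move together: mt-Co1, mt-Nd6 and mt-Nd5 were lower in KO, mt-Cytb was higher, and the other 9 did not pass the test on their own rows. On those rows 30.8% were called, against 47.3% of all tested genes. The largest member, mt-Co1 (chrM:5328-6872), encodes subunit 1 of cytochrome c oxidase, the proton-pumping core of complex IV. It held 14190, 13750 and 13090 CPM in the WT libraries and 9051, 8623 and 9713 CPM in the KO libraries. The groups were far apart, with a log2 change (the log2 fold change of KO against WT) of -0.58 ± 0.06 (SE; edgeR adjusted p = 0.000189).

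Cytochrome b, encoded by mt-Cytb (chrM:14145-15288), is the only mtDNA-encoded subunit of complex III and went the other way. Its levels were 1373, 1512 and 1510 CPM in WT and 2437, 2134 and 2120 CPM in KO. Every KO library lay above every WT library, with a log2 change of 0.61 ± 0.07 (SE; edgeR adjusted p = 0.000404). Per kilobase of gene, mt-Co1 stood at 8850 CPM in WT and 5910 CPM in KO and mt-Cytb at 1280 and 1950 CPM.

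Among the complex I genes of mtDNA, mt-Nd6 is the only protein-coding gene read from the other strand of mtDNA. It measured 249.6, 234.8 and 244.9 CPM in WT and 180.8, 180.9 and 196.8 CPM in KO, a log2 change of -0.39 ± 0.06 (SE; edgeR adjusted p = 0.00151). Its annotated span (chrM:13552-14070) overlaps the end of mt-Nd5 (chrM:11742-13565), and whether the counting used strand is not given, so reads of opposite strands cannot be told apart. The mt-Nd5 row held 1440, 1429 and 1365 CPM in WT and 1213, 1119 and 1229 CPM in KO, with a log2 change of -0.25 ± 0.06 (SE; edgeR adjusted p = 0.00883). The other complex I genes without a copy, mt-Nd1, mt-Nd2 and mt-Nd4, showed smaller differences that did not pass the test, at log2 fold changes of 0.09, 0.09 and -0.06. In mt-Nd1 and mt-Nd2 the KO replicate 1 library was the highest of the 6, at 1713 and 974.1 CPM, against 1396 and 791.5 CPM in KO replicate 2. Of the ATP synthase genes, mt-Atp8 held 143.2, 151.1 and 145.8 CPM in WT and 141.3, 126.2 and 127.4 CPM in KO, a log2 change of -0.16 that did not pass the test (edgeR adjusted p = 0.0793) but did with upper-quartile scaling (0.0296). Its span (chrM:7766-7969) follows mt-Co2 and overlaps the start of mt-Atp6 (chrM:7927-8607), which both have chromosome 1 copy rows. The search covered annotated transcripts only and found no copy row for mt-Atp8 itself. The copies of mt-Co2 and mt-Atp6 lie close together, at chr1:24614885-24615565 and chr1:24613974-24614651, so a missing row does not show a missing copy. Whether mt-Atp8 reads are shared with chromosome 1 was not tested.

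For 4 of the 6 genes with a chromosome 1 copy, the gene's own row held a small part of the shared counts. For mt-Co3 it was between 0.991% and 8.4% of the pair's counts, for mt-Co2 between 2.25% and 3.19%, for mt-Atp6 between 3.21% and 6.02%, and for mt-Nd4l between 12.5% and 22.1%. For mt-Nd3 it was between 47.3% and 81.2%, while mt-Co1, whose copy spans only part of the gene, kept at least 94.1%. Taken alone, the mt-Co3 row read 26.0, 125.7 and 26.1 CPM in WT and 109.0, 183.1 and 51.2 CPM in KO, which overlap widely (log2 fold change 0.95, edgeR adjusted p = 0.315). Without WT replicate 2 that value became 2.13 (edgeR adjusted p = 0.0166).

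Adding each copy's counts to its gene, an alternative chosen after seeing the data, brought the replicates together. Gene and copy summed to 2533, 2622 and 2634 CPM in WT and 2297, 2180 and 2302 CPM in KO for mt-Co3, so the log2 fold change turned to -0.20 ± 0.05 (SE; edgeR adjusted p = 0.0122). For mt-Co2, which encodes the subunit of complex IV that receives electrons from cytochrome c, the sum gave -0.15 (edgeR adjusted p = 0.0319). For mt-Atp6, which encodes a proton-channel subunit of the ATP synthase, it gave -0.17 (edgeR adjusted p = 0.0445), against -0.01 on its own row.

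The sum for mt-Nd3, a small membrane subunit of complex I, rose most. It held 68.6, 73.6 and 69.2 CPM in WT and 143.4, 122.0 and 123.3 CPM in KO, with a log2 change of 0.88 ± 0.08 (SE; edgeR adjusted p = 0.000105). On its own row it read 34.97, 59.7 and 49.2 CPM against 95.2, 57.7 and 64.9 CPM, a log2 fold change of 0.60 that did not pass the test (edgeR adjusted p = 0.0615) but did with DESeq2 (adjusted p = 0.0244), with plain library sizes (edgeR adjusted p = 0.046) and without WT replicate 2 (edgeR adjusted p = 0.0437). The mt-Nd4l sum did not pass the test, at a log2 fold change of 0.06, and that of mt-Co1 stayed near its own row at -0.59. With the sums, 2 mtDNA genes were higher (mt-Cytb and mt-Nd3) and 6 were lower (mt-Co1, mt-Co2, mt-Co3, mt-Atp6, mt-Nd5 and mt-Nd6). In that fit 6780 genes were called in all, against 6806 (47.3% of those tested) on the deposited rows. The called share of the 13 mtDNA genes lay above that of all genes with the copies added. On their own rows it lay below, at 30.8%. Without KO replicate 1 the lower calls on the deposited rows numbered 5 in place of 3, with mt-Co2 (edgeR adjusted p = 0.0143) and mt-Atp8 (0.0135) added.

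**Figure D2:**
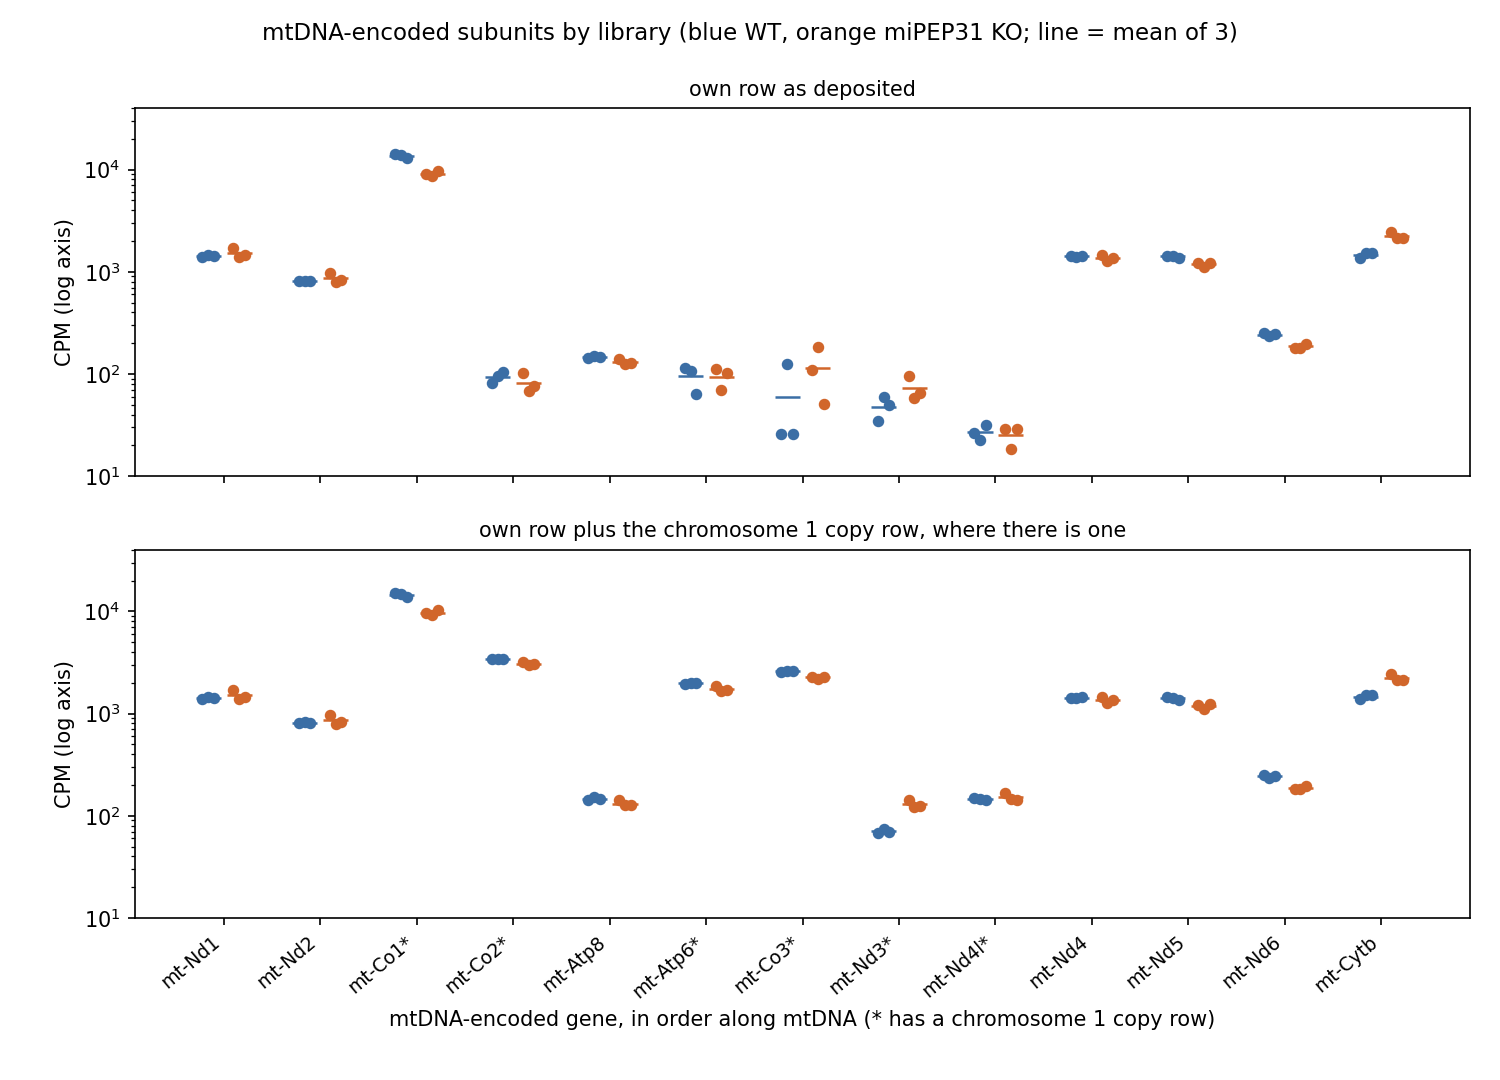
CPM on a log axis of the 13 mtDNA genes in their order along mtDNA, for the 3 WT (blue) and 3 KO (orange) libraries, with lines at group means; the upper panel uses each gene's own row and the lower panel adds the chromosome 1 copy. In the lower panel the replicates of mt-Co3 draw together at 2180 to 2634 CPM, and mt-Nd3 separates the groups.

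As a share of all counts, the mtDNA genes took 2.06% ± 0.0554 (SD, n = 3) in WT and 1.72% ± 0.0738 (SD, n = 3) in KO. With the copies added the shares were 2.92% and 2.49%. Summed mtDNA rows stood at 20930 CPM in WT and 17000 CPM in KO, a ratio of 0.812, but at 7251 and 7871 CPM without mt-Co1, a ratio of 1.09. With the copies added, the sums without mt-Co1 and its copy were 14925, 15275 and 15183 CPM in WT and 15757, 14147 and 14655 CPM in KO, a ratio of 0.982, so that the direction of the remainder turned with the copies. The copy rows themselves had a ratio of 0.861. With 3 libraries against 3 no permutation of a single value can pass 0.05, so these shares are given as a description.

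Of the 35 nuclear complex I subunits, 11 were higher, 5 were lower and 19 did not pass the test, so 45.7% were called against 47.3% of all tested genes. All 11 higher ones were among the 28 accessory subunits, which surround the catalytic core and have roles in its assembly and stability, whereas of the 7 nuclear core subunits, which carry flavin and iron-sulfur clusters, 0 were higher and 1 was lower. Of the accessory subunits 39.3% were thus higher and 14.3% lower, against 25.1% and 22.2% of all tested genes, and the difference between accessory and core subunits was not tested. Calls were also split by transcript length. Over all complexes, of the 45 nuclear subunits with a principal transcript under 1000 bases in the annotation, 14 were higher and 5 lower. Of the 33 longer ones, 4 were higher and 7 lower. The higher share was thus 31.1% for the short subunits, near the 28.7% of all tested genes of that length. For the longer subunits it was 12.1%, against 27.6% of all tested genes of that length. Lower calls numbered 113 of 708 short and 2557 of 11366 longer tested genes. Across the 78 genes, which are not independent replicates, length and log2 fold change had a Spearman correlation of -0.24, against -0.04 over 12074 tested genes; the annotated transcript need not be the one expressed, and the part of length in these counts was not tested.

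Ndufs5, an accessory subunit on the intermembrane-space side (chr4:123712710-123718202), held 19.4, 20.0 and 18.8 CPM in WT and 28.4, 26.0 and 26.2 CPM in KO. The groups were separate, with a log2 change of 0.47 ± 0.08 (SE; edgeR adjusted p = 0.00183). Ndufb10 (chr17:24722060-24724478), an accessory subunit of the distal membrane arm, held 40.2, 37.9 and 38.4 CPM in WT and 47.1, 50.2 and 52.9 CPM in KO, a log2 change of 0.37 ± 0.07 (SE; edgeR adjusted p = 0.00341). Ndufa2, an accessory subunit of the peripheral arm, held 23.9, 25.1 and 23.1 CPM in WT and 33.8, 29.2 and 31.7 CPM in KO (log2 fold change 0.39, edgeR adjusted p = 0.00529). In all 3 genes the lowest KO library lay above the highest WT library. The other accessory subunits called higher were Ndufa5, Ndufc1, Ndufa3, Ndufb9, Ndufa11, Ndufb6, Ndufa8 and Ndufb4, with log2 fold changes between 0.22 and 0.52.

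Ndufb4, at 0.52 the largest of them, shares 390 identical bases with the processed pseudogene Ndufb4c and held only 30.2% to 42.4% of the pair's counts. Its own row read 6.20, 5.53 and 6.53 CPM in WT and 9.71, 7.63 and 8.95 CPM in KO. Summed with the pseudogene, the log2 fold change was 0.26 (edgeR adjusted p = 0.0288).

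The largest fall among nuclear subunits was that of Ndufv3, a small accessory subunit beside the NADH-binding module (chr17:31520115-31531331). It held 106.4, 110.6 and 104.9 CPM in WT and 48.4, 62.4 and 80.6 CPM in KO. The WT libraries were close together and the KO libraries spread widely below them, with a log2 change of -0.75 ± 0.16 (SE; edgeR adjusted p = 0.00573). Ndufb11 (log2 fold change -0.30), Ndufb3 (-0.29) and Ndufa10 (-0.24) were the other accessory subunits called lower. Of the core subunits, Ndufs1, which carries iron-sulfur clusters next to the flavin site, held 103.9, 107.5 and 99.99 CPM in WT and 94.0, 84.4 and 86.5 CPM in KO, a log2 change of -0.23 ± 0.07 (SE; edgeR adjusted p = 0.0188). Ndufv1, which binds NADH and flavin, did not pass the test, with a log2 fold change of 0.01 that changed sign under other settings.

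Of the 16 nuclear complex I calls, 7 held with each library left out in turn. Ndufb6 lost its call whichever library was left out (edgeR adjusted p up to 0.156), and Ndufa3 and Ndufc1 held in 1 fit of 6 each (up to 0.13 and 0.0916). Without WT replicates 1, 2 and 3, 10, 9 and 10 of the 16 held, and the other losses were Ndufa5, Ndufa8, Ndufb3, Ndufb4, Ndufb9 and Ndufs1.

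Complex II, succinate dehydrogenase, also a step of the tricarboxylic acid cycle, is the only complex with no mtDNA-encoded part. Of its 4 subunits, Sdha and Sdhd were lower and Sdhb and Sdhc did not pass the test. Sdhd (chr9:50596357-50603812), a membrane anchor at the ubiquinone site, held 111.2, 109.2 and 115.2 CPM in WT and 95.6, 84.4 and 90.0 CPM in KO. All 3 KO values lay below the WT values, with a log2 change of -0.31 ± 0.07 (SE; edgeR adjusted p = 0.00527). It was the only subunit among the 30 genes of the authors' deposited table of centred log10 values, in which it stood at 0.039, 0.029 and 0.053 in WT and at -0.019, -0.056 and -0.046 in KO.

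Sdha, the flavoprotein that oxidises succinate, held 274.1, 274.2 and 271.8 CPM in WT and 243.5, 234.1 and 243.2 CPM in KO, with a log2 change of -0.19 ± 0.05 (SE; edgeR adjusted p = 0.0193). The test was missed when WT replicate 1, 2 or 3 or KO replicate 2 was left out, at edgeR adjusted p of 0.0636, 0.0754, 0.0572 and 0.0648. The iron-sulfur subunit Sdhb and the other membrane anchor Sdhc had log2 fold changes of 0.06 and 0.07. In both, the KO libraries nonetheless lay above the WT libraries. They held 97.3 to 100.4 against 93.5 to 97.1 CPM for Sdhb and 79.8 to 83.7 against 77.3 to 78.9 CPM for Sdhc. Groups without overlap were found for 59.1% of all tested genes. Summed over the 4 genes, complex II stood at 558.0 ± 3.21 CPM (SD, n = 3) in WT and 511.0 ± 10.8 CPM (SD, n = 3) in KO.

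Of the 9 nuclear subunits of complex III, 1 was higher, 2 were lower and 6 did not pass the test. That is 33.3% called, against 47.3% of all tested genes. Uqcrq (chr11:53427922-53430831), a small subunit that contacts cytochrome b, held 83.9, 87.0 and 78.8 CPM in WT and 125.3, 111.9 and 117.9 CPM in KO. The gap between the groups was larger than the spread within either, with a log2 change of 0.51 ± 0.07 (SE; edgeR adjusted p = 0.000661). Uqcrfs1, the Rieske iron-sulfur protein that takes electrons from ubiquinol, held 146.7, 141.0 and 148.0 CPM in WT and 120.0, 111.3 and 120.4 CPM in KO, and fell by 0.31 on the log2 scale (SE 0.06, edgeR adjusted p = 0.00371). Uqcrh, the acidic hinge subunit near cytochrome c1, held 86.7, 95.1 and 91.7 CPM in WT and 71.6, 68.5 and 80.4 CPM in KO, a log2 change of -0.31 ± 0.08 (SE; edgeR adjusted p = 0.0113). Without WT replicate 2 or KO replicate 2 its edgeR adjusted p was 0.0518 and 0.0513.

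The other catalytic subunit of nuclear origin, cytochrome c1 (Cyc1), held 117.2, 113.5 and 124.1 CPM in WT and 148.4, 129.0 and 130.7 CPM in KO. The groups did not overlap, but its log2 fold change of 0.20 did not pass the test (edgeR adjusted p = 0.0524); it did with plain library sizes (0.0202) and without KO replicate 3 (0.0396). The core proteins Uqcrc1 and Uqcrc2, which face the matrix, had log2 fold changes of -0.04 and -0.15 that did not pass the test. Uqcrc2 passed it with upper-quartile scaling (edgeR adjusted p = 0.0295) and without KO replicate 1 (0.029). Cytochrome b, cytochrome c1 and the Rieske protein thus had log2 fold changes of 0.61, 0.20 and -0.31.

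Of the 13 nuclear subunits of complex IV, 2 were higher, 1 was lower and 10 did not pass the test. That is 23.1% called, against 47.3% of all tested genes. Cox6a1 (chr5:115345642-115348981), the isoform of subunit 6a found outside heart and muscle, held 157.6, 141.8 and 147.1 CPM in WT and 174.7, 177.1 and 190.1 CPM in KO, with separate groups and a log2 change of 0.28 ± 0.07 (SE; edgeR adjusted p = 0.00923). Cox5b, a zinc-binding subunit on the matrix side, held 116.7, 112.2 and 108.7 CPM in WT and 129.7, 121.2 and 130.4 CPM in KO (log2 fold change 0.18, edgeR adjusted p = 0.042). Cox6c (chr15:35925886-35938246), a small single-span subunit, held 65.8, 67.4 and 64.1 CPM in WT and 58.2, 52.0 and 52.4 CPM in KO, a log2 change of -0.28 ± 0.07 (SE; edgeR adjusted p = 0.0102). The Cox5b call was lost whichever library was left out (edgeR adjusted p from 0.06 to 0.147) and that of Cox6a1 without WT replicate 2 (0.0531).

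Among the complex IV subunits that did not pass the test, differences were small. Cox4i1 and Cox5a, which associate early with subunit 1 during assembly, had log2 fold changes of 0.08 and -0.01, and Ndufa4 one of 0.09. Cox7a2l had one of -0.01 and Cox7a2 one of -0.09. The nuclear subunits of complex IV summed to 1340 CPM in WT and 1364 CPM in KO, beside the fall of mt-Co1 from 13680 ± 552 to 9129 ± 549 CPM (mean ± SD, n = 3 each).

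Tissue-restricted isoforms were nearly silent. Cox7b2 and Cox8c had 0 counts in every library, and Cox8b and Ndufa4l2 had at most 2 counts in any library. Cox4i2, the isoform of subunit 4 induced by low oxygen in some tissues, had 20, 15 and 8 counts in WT and 2, 4 and 3 in KO, too few for the filter on low counts, so it was not tested. Cox6a2, the heart and muscle isoform, had 6 to 13 counts per library and a log2 fold change of 0.07 that did not pass the test (edgeR adjusted p = 0.909). The testis isoform Cox6b2 had a log2 fold change of -0.22 that also did not pass it (edgeR adjusted p = 0.608) and became 0.13 without WT replicate 1.

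Of the 17 nuclear subunits of the ATP synthase, 4 were higher, 2 were lower and 11 did not pass the test. That is 35.3% called, against 47.3% of all tested genes. The main parts of the catalytic F1 head did not pass the test: Atp5b, the catalytic beta subunit, held 1512, 1507 and 1557 CPM in WT and 1513, 1458 and 1431 CPM in KO (log2 fold change -0.06), and Atp5a1, the alpha subunit, had a log2 fold change of -0.14 (edgeR adjusted p = 0.0863), which passed with upper-quartile scaling (0.027) and without KO replicate 1 (0.0166). Atp5c1, the gamma subunit that turns inside the head, held 234.3, 241.6 and 233.0 CPM in WT and 209.3, 196.7 and 217.2 CPM in KO, a log2 change of -0.19 ± 0.06 (SE; edgeR adjusted p = 0.033). Atp5e, the small epsilon subunit, held 43.9, 42.4 and 42.7 CPM in WT and 53.1, 52.5 and 50.2 CPM in KO, a log2 change of 0.27 ± 0.06 (SE; edgeR adjusted p = 0.0067).

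The c subunit, which forms the rotating ring in the membrane, is made from 3 genes that encode the same mature protein behind different import sequences. They differed in direction. Atp5g1 (chr11:96068852-96075670) held 63.5, 61.6 and 65.6 CPM in WT and 83.3, 77.8 and 71.7 CPM in KO, a log2 change of 0.29 ± 0.07 (SE; edgeR adjusted p = 0.0118). Atp5g2 (chr15:102662864-102672352) held 12.2, 11.2 and 9.32 CPM in WT and 5.82, 7.93 and 7.48 CPM in KO, a log2 change of -0.62 ± 0.16 (SE; edgeR adjusted p = 0.0142). Atp5g3 did not pass the test: it held 166.9, 160.8 and 173.9 CPM in WT and 165.5, 150.9 and 158.2 CPM in KO, a log2 change of -0.08.

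Atp5l, a membrane subunit at the dimer interface, and Atp5f1, the b subunit of the peripheral stalk, were the other members called higher, at log2 fold changes of 0.23 and 0.15. Atp5l shares 309 identical bases with the processed pseudogene Gm10221, at 3.94 to 7.55 CPM, and Atp5f1 overlaps Wdr77 by 192 bases, so part of their reads may be counted elsewhere. With one library left out in turn, between 2 and 5 of the 6 complex V calls held. Atp5f1 lost its call whichever library was left out (edgeR adjusted p from 0.0548 to 0.147) and Atp5c1 when WT replicate 1, 2 or 3 or else KO replicate 2 was left out (0.0752 to 0.121). The call was also lost by Atp5g2 without WT replicate 1 or 2 (up to 0.0597), by Atp5l without WT replicate 1 or 3 (up to 0.0667) and by Atp5g1 without WT replicate 2 (0.0594).

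**Figure D3:**
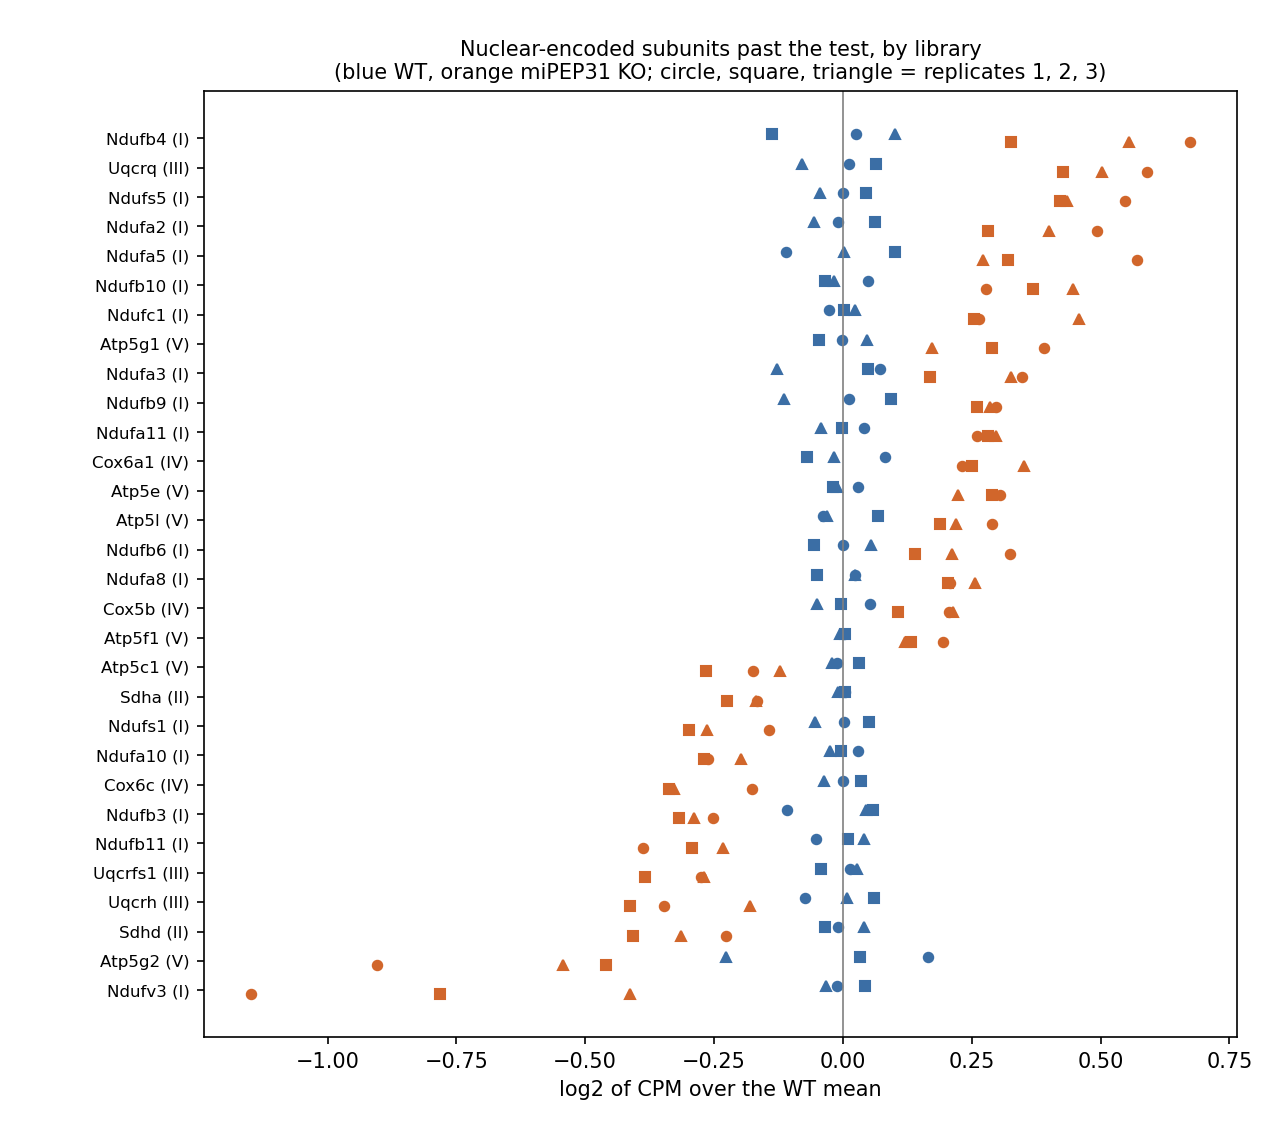
CPM of each library over the WT mean, on a log2 scale, for the 30 nuclear-encoded subunits that passed the test, with the complex in brackets. WT libraries (blue) scatter about 0 and KO libraries (orange) lie to one side of them in every gene plotted; Ndufv3 has the widest KO spread, at 48.4, 62.4 and 80.6 CPM.

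Summed by complex, the nuclear subunits differed most between the groups in complex II. The KO to WT ratio of the summed CPM was 0.998 for complex I, 0.916 for complex II, 0.991 for complex III, 1.02 for complex IV and 0.962 for complex V. For complexes I, III and IV the WT libraries lay inside the range of the KO libraries, which spread more, while for complexes II and V every KO sum lay below every WT sum. Over all 78 nuclear genes the sums were 8687, 8702 and 8730 CPM in WT and 8686, 8302 and 8566 CPM in KO. These ratios move with the TMM factors: as shares of all counts, without those factors, the nuclear genes took 0.856% in WT and 0.864% in KO, a ratio of 1.01. On that scale complex II kept separate groups, at a ratio of 0.945, the complex V groups overlapped, at 0.993, and those of complex IV were separate, with KO higher, at 1.05.

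**Figure D4:**
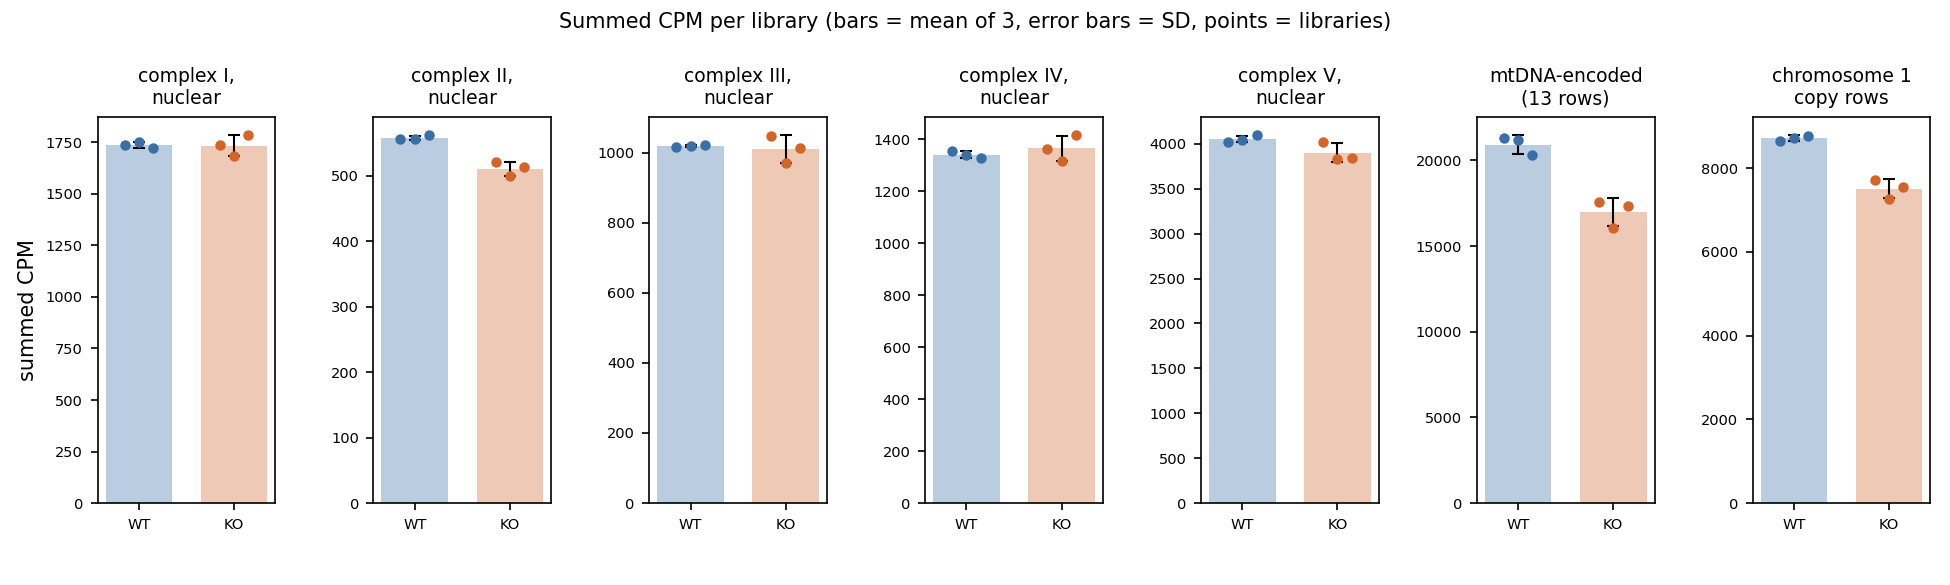
Summed CPM of the nuclear subunits of each complex, of the 13 mtDNA rows and of the 6 chromosome 1 copy rows, with bars at the mean of 3 libraries, error bars of 1 SD and points for libraries. The complex II sum is 558.0 CPM in WT and 511.0 CPM in KO, the mtDNA sum 20930 and 17000 CPM, and the copy rows 8714 and 7502 CPM.

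Promoters of the nuclear subunits were searched for motifs of factors known to act on respiratory genes. RefSeq promoters (GRCm38.p6, 250 bases before to 50 after the start) were at hand for 63 of the 78 genes. The NRF1 half-site TGCGCA, on either strand, was in 27.0% of them and in 8.1% of 27025 promoters of all genes. The shares were 23.8% against 9.1% for the ETS core CCGGAAG, 14.3% against 6.5% for the YY1 core AAGATGG, and 6.3% against 1.9% for the cAMP response element TGACGTCA. Among the 10013 tested genes with a promoter the shares were higher than among all promoters, at 14.7% for the half-site, 18.9% for the ETS core, 7.5% for the YY1 core and 3.3% for the cAMP response element. The motifs do not contain one another.

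Split by call, the half-site was in 9 of 14 promoters of higher subunits, in 3 of 10 of lower ones and in 5 of 39 of those that did not pass the test. The 9 were Ndufs5, Ndufb10, Ndufb4, Ndufb6, Ndufa5, Ndufa8, Cox5b, Cox6a1 and Atp5l, of which Ndufb6 and Cox5b lost their call whichever library was left out. The 3 lower ones were Sdha, Sdhd and Atp5g2. Over all tested genes the half-site was in 14.5% of higher, 13.8% of lower and 15.1% of the other promoters. In the same order, the ETS core was in 4, 2 and 9 of these subunit promoters, the YY1 core in 2, 0 and 7, and the cAMP response element in 1, 2 and 1. This split was looked at after the calls were known and rests on few promoters, and a match is a description of the letters, not a site. The windows below are 30 bases that lie before the start and outside annotated exons, with the match in capitals. They show the half-site in 3 subunits that were higher, and the ETS core, read on the other strand, in Atp5e, which was higher, and Sdhd, which was lower.
Ndufs5, chr4:123718268-123718297, minus strand: tgggctgcttgcTGCGCAggcgcagacccg
Ndufb6, chr4:40279482-40279511, minus strand: aagagagggcttTGCGCAtgagcagagcct
Cox6a1, chr5:115349059-115349088, minus strand: ggacggataaagTGCGCAggcgctggagtt
Atp5e, chr2:174464186-174464215, minus strand: ctacggccacagCTTCCGGtagccgctcgg
Sdhd, chr9:50603878-50603907, minus strand: accgtctcctgcCTTCCGGttcacgcttca

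Other genes of the pathway were counted in lists of assembly factors, electron carriers and mitochondrial gene expression. Assembly factors of complex IV were higher in 12 of 22 tested and lower in 1, with a median log2 fold change of 0.25, beside 25.1% higher, 22.2% lower and a median of 0.01 for all tested genes. Sco1, which delivers copper to the oxidase, held 33.2, 31.2 and 31.7 CPM in WT and 55.9, 50.8 and 48.7 CPM in KO (0.69 ± 0.07 SE on the log2 scale, edgeR adjusted p = 0.000228). Cox19, another protein of copper handling, had a log2 fold change of 0.60 (edgeR adjusted p = 0.00125). The one lower gene was Oxa1l, which inserts mtDNA-encoded proteins into the inner membrane, at -0.23 (edgeR adjusted p = 0.0182).

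Of 18 complex I assembly factors, 5 were higher and 2 lower, beside 25.1% higher and 22.2% lower of all tested genes. Tmem126a rose by a log2 fold change of 0.84 (edgeR adjusted p = 0.00061) and Timmdc1 by 0.52 (edgeR adjusted p = 0.00132), whereas Dmac2 (-0.44) and Ecsit (-0.23) were lower. For complexes II, III and V, 1 of 4, 0 of 7 and 1 of 3 assembly factors were higher and 0, 1 and 0 were lower: Sdhaf2 at 0.36, Atpaf2 at 0.29 and Hccs, which attaches haem to cytochromes c and c1, at -0.44. Among 21 genes of the mobile carriers and of ubiquinone synthesis, 6 were higher and 3 lower, beside the same shares of all tested genes. Coq7, a hydroxylase late in ubiquinone synthesis, held 17.9, 20.3 and 19.7 CPM in WT and 10.4, 10.6 and 11.3 CPM in KO (-0.84 ± 0.10 SE on the log2 scale, edgeR adjusted p = 0.000296), while Coq10b and Gpd2, the glycerol-3-phosphate dehydrogenase that feeds ubiquinone, were higher at 0.75 and 0.31 and Coq10a lower at -0.48.

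Of 29 genes for mtDNA maintenance and expression, 6 were higher and 8 lower, beside 25.1% higher and 22.2% lower of all tested genes. Twnk, the mtDNA helicase, held 38.7, 36.0 and 40.9 CPM in WT and 24.7, 23.5 and 21.7 CPM in KO (log2 fold change -0.73, edgeR adjusted p = 0.0003). The transcription factor Tfb2m was lower at -0.53, and Tefm, a transcription elongation factor, and Mterf3 were higher at 0.66 and 0.57. Of the mitochondrial ribosomal RNAs, mt-Rnr1 held 340.6, 305.4 and 294.3 CPM in WT and 193.6, 157.3 and 204.8 CPM in KO (log2 fold change -0.76, edgeR adjusted p = 0.000793), and mt-Rnr2 did not pass the test at -0.09. Of 9 regulators of mitochondrial biogenesis tested, Nrf1 was higher at 0.22 (edgeR adjusted p = 0.0236) and Yy1 lower at -0.32 (edgeR adjusted p = 0.00745).

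Around the chain, 5 of 14 tricarboxylic acid cycle genes were lower and 1 was higher, beside 22.2% lower and 25.1% higher of all tested genes. Of the succinate-CoA ligase genes, Sucla2 had a log2 fold change of -0.02 and missed the threshold (edgeR adjusted p = 0.799) and the other two fell. Suclg2 held 65.9, 60.0 and 64.6 CPM in WT and 33.2, 34.3 and 31.6 CPM in KO (log2 fold change -0.94, edgeR adjusted p = 4.14e-05), and Suclg1 had a log2 fold change of -0.88 (edgeR adjusted p = 6.66e-05). Ogdh, the dehydrogenase step before them, was the one higher gene at 0.24. Of 7 genes for ATP export and uncoupling, 2 were higher and 3 lower, among them Ucp2, an inner membrane carrier, at 607.8, 607.7 and 634.8 CPM in WT and 299.3, 364.0 and 398.2 CPM in KO (log2 fold change -0.80, edgeR adjusted p = 0.000458). Vdac1, the main pore of the outer membrane, was lower at -0.62, and Slc25a4, an ADP/ATP exchanger, and Vdac3 were higher at 0.17 and 0.28. The median log2 fold change was 0.09 for complex I assembly, 0.06 for the carriers, -0.01 for mtDNA expression and -0.14 for the tricarboxylic acid cycle, beside 0.01 for all tested genes.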

How the data were processed

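RNA-seq was analysed from 6 libraries, 3 WT and 3 KO. The authors deposited estimated counts per gene, per the file headers, of which 72.2% of values above 0 were whole; they were rounded before testing. The authors also deposited centred log10 values of 30 genes, with the base read from the values (slope against log2 CPM 0.293, log10 of 2 being 0.301). Per the submitters' processing notes, Bowtie 0.12.2 and mm8 were used, with no role given; the counter, its annotation and strand use were not given in the sources used here. Of 51912 Ensembl IDs, 51633 had a GENCODE M21 symbol; 944 unnamed rows with 0.903% to 1.56% of counts were kept in the fit. Coordinates are from GENCODE M21 (GRCm38), matched by ID.

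Genes were kept with filterByExpr (minimum count 10) of edgeR 4.0.16, scaled by TMM and compared with the robust quasi-likelihood test, Benjamini-Hochberg adjusted over 14387 genes. SE was taken as the unshrunk log2 change divided by the root of the F statistic. Alternatives used DESeq2 1.42.0 and limma 3.58.1. Shared sequence was found with BLAST 2.17.0 (at least 97% identity over 150 bases). Named genes were all mtDNA genes and, per complex, up to 4 called each way by smallest p, the 2 most abundant, fixed core subunits and isoforms; up to 2 each way came from other lists. Other called subunits were named after their values were seen. Members and lists were chosen with earlier results of these data known. One subunit is included in the counts and sums but is not reported singly here.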

Additional observations from a re-analysis of the deposited data

How the results depend on the processing

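Replicate numbers did not pair the samples: deviations of same-numbered WT and KO libraries correlated at 0.001, -0.007 and -0.016, and no library correlated best with its own number. With the replicate block, higher nuclear subunits numbered 10 (18 without the block), lower ones 9 and higher mtDNA genes 2 (mt-Cytb, and mt-Co3 at 1.18 with edgeR adjusted p = 0.0192, whose direction turns with the copies added), and 5736 genes were called in all. Leaving out one library at a time gave 9 to 14 higher and 6 to 17 lower nuclear subunits, 1 to 3 higher and 3 to 5 lower mtDNA genes, and 5142 to 7233 calls over all genes. Higher mtDNA genes numbered 2 with DESeq2, with plain library sizes and with the chromosome 1 copies added, which also gave 6 lower ones and a change in mtDNA share of counts of -0.429 percentage points (-0.334 without them). The cause of these shifts was not tested, apart from the added copies, whose counts are the change itself.

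Of the 34 called subunits, 34 kept their direction in each setting, and the calls that remained numbered 29 with DESeq2, 34 with limma-voom, 29 with upper-quartile scaling, 33 with plain library sizes, 28 without a filter on low counts, 34 with a filter of 1 CPM, 23 with the replicate block and 19 to 30 with a library left out. Direction turned only for subunits that had not passed the test, as log2 fold changes: Cox5a 0.038, Cox7a2l 0.031, Uqcrc1 0.002 and mt-Atp6 0.039 with plain library sizes; Ndufv1 -0.009 with DESeq2, -0.031 with upper-quartile scaling, -0.011 without the filter and -0.002 with 1 CPM; mt-Atp6 0.008 with limma-voom and 0.009 with the replicate block; and mt-Co3 -0.20 and mt-Nd4l 0.058 with the copies added. With a library left out the ranges were -0.042 to 0.012 for Cox5a, -0.379 to 0.13 for Cox6b2, -0.073 to 0.016 for Cox7a2l, -0.035 to 0.025 for Ndufv1, -0.221 to 0.164 for mt-Atp6, -0.006 to 0.139 for mt-Nd1, -0.005 to 0.141 for mt-Nd2 and -0.219 to 0.084 for mt-Nd4l. These turns were looked for in the 25 subunits of the naming rule that had not passed the test, and the other subunits that missed it were not followed. Depth limits the isoforms with few counts: Cox4i2 was removed by the filter and so was not tested.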
